A study of Mus musculus with 4 samples.

Results

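The genes described here are 36 mitosis and G2/M genes, chosen by name for their role in cell division and read from the gene counts of 4 libraries. All 36 were among the 14082 genes of the tables and among the 13358 that were tested. Each library is described as bulk total RNA of tumour-infiltrating CD8 T cells that recognise ovalbumin, sorted by flow cytometry. The tumours were E.G7, a derivative of the mouse T lymphoma EL4 made to express ovalbumin, grown under the skin of mice aged 6 to 10 weeks. The 2 libraries labelled KO came from Cd8-cre Smad4-fl/fl mice, in which the Cre recombinase is driven by regulatory sequence of the CD8 gene. The 2 libraries labelled WT came from Smad4-fl/fl mice, which carry the same floxed alleles without Cre. Nothing in the labels ties a library to its own animal, and the p-values below therefore rest on a spread between samples that may be only technical.

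As background, a dividing cell passes from G2 into mitosis when cyclin B and the kinase CDK1 become active. Kinetochores then attach chromosomes to the spindle, a checkpoint holds the cell until all are attached, and the anaphase-promoting complex with its activator CDC20 releases the sister chromatids. A central spindle and a contractile ring then divide the cell. The genes for these proteins are transcribed late in the cell cycle, under MuvB complexes with B-MYB and FOXM1, and their messages are commonly used to mark dividing T cells in tumours. In bulk RNA, a larger share of dividing cells, more of a message per cell and a different mix of cell types cannot be told apart.

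Summed counts ranged from 25806382 to 26218277 in the libraries labelled KO and from 24366540 to 25790107 in those labelled WT. Counts of single mitosis genes ranged from 235 to 5487. The targeted gene, Smad4, had 29.3 and 40.3 CPM, the count of a gene relative to its library's TMM-scaled total, in the libraries labelled KO, against 31.7 and 29.5 CPM in those labelled WT. Its log2 fold change, KO over WT, was 0.19 with a 95% confidence interval from -0.12 to 0.49 (Benjamini-Hochberg adjusted p = 0.397 in edgeR), so its count was not lower in the libraries labelled KO. A count over the whole gene cannot show whether the floxed exon was lost. Leaving out KO replicate 1 gave 0.40 (adjusted p = 0.00806) and leaving out KO replicate 2 gave -0.063 (adjusted p = 0.784), which are the ends of its range over the 10 alternatives. Markers were called at an edgeR adjusted p under 0.05. Of all tested genes, 10.1% were called higher and 11.0% lower. Of 9 T cell markers, 6 were lower. All 9 had both KO libraries below both WT libraries, which was so for 4013 of the 13358 tested genes. Their median log2 fold change was -0.59. Their summed level was 1996 to 2021 CPM in the libraries labelled KO against 2945 to 3018 CPM in those labelled WT. The tumour line derives from a T lymphoma, and bulk counts cannot tell any T cell messages of its own from those of the sorted cells. Cd8a and Cd8b1, which mark the sorted cells, were present in every library and had log2 fold changes of -0.93 and -0.96 (edgeR adjusted p = 1.23e-07 and 1.02e-07). Of 12 neutrophil markers, 6 were higher, and none was at 0 counts in any library. Their summed levels were 1627 to 1630 CPM against 520 to 529 CPM. The rise was not uniform, as the median marker had 25.3 and 10.8 CPM against 10.9 and 12.2 CPM. Groups overlapped for 4 of the 12, and both KO libraries were above both WT libraries for 8, beside 29.7% of all tested genes. Of 10 monocyte and macrophage markers, 1 was higher and 1 lower (10% each way), near the shares of all tested genes. Their sums were 17965 to 18647 CPM against 18166 to 18885 CPM. In every library that sum was above the sum of the T cell markers. Erythroid markers were higher for 4 of 6 (56.2 to 89.3 CPM against 28.7 to 36.2 CPM), fibroblast markers for 3 of 7 (603 to 672 CPM against 525 to 568 CPM) and B cell markers for 2 of 5 tested (52.7 to 57.4 CPM against 36.6 to 40.2 CPM). Dendritic cell markers moved both ways, with 2 of 7 higher and 1 lower (329 to 341 CPM against 221 to 222 CPM). Endothelial markers were lower for 3 of 5 (54.1 to 54.9 CPM against 55.7 to 58.2 CPM), and 1 of 3 tested NK cell markers was lower (1.05 to 1.30 CPM against 1.22 to 1.80 CPM). The part of these markers in the results below was not tested.

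Of the 36 mitosis genes, 13 rose in the libraries labelled KO, 1 fell and 22 did not pass, where a call is a Benjamini-Hochberg adjusted p under 0.05 in edgeR's quasi-likelihood test over all tested genes. That is 36.1% of the list called higher, beside 10.1% of all tested genes called higher and 11.0% called lower. The risers were Plk1, Cdc20, Ccnb1, Aurkb, Top2a, Cdk1, Aurka, Kif2c, Bub1, Hmmr, Anln, Espl1 and Kif20a, by 1.25-fold to 1.66-fold. The single fall was Cenpa, the gene of the centromeric histone. Only Plk1 and Aurka differed by more than 1.5-fold among the 36. Summed over the list, the level was 2154 and 2214 CPM in the libraries labelled KO, against 1902 and 1889 CPM in those labelled WT. The median log2 fold change was 0.22, with quartiles of 0.11 and 0.42, against a median of -0.0037 over all tested genes. For 27 of the 36 both KO libraries lay above both WT libraries, which was so for 29.7% of all tested genes.

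The scaling and 1 library moved the count of risers by more than 1.5 times. With library totals alone in place of TMM factors, 20 rose and 1 fell, and the median over all tested genes moved by 0.0852 on the log2 scale. Without WT replicate 1, 8 rose and 1 fell. Higher calls made up 92.9% of the list's calls, or 95.2% with library totals alone, against 47.9% and 67.5% over all tested genes. Replicates differed little for these genes, with a median absolute log2 difference of 0.094 between the KO libraries and 0.092 between the WT libraries. The widest gaps between replicates were 0.59 for Kif23 between the KO libraries and 0.37 for Kif4 between the WT libraries.

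**Figure D1:**
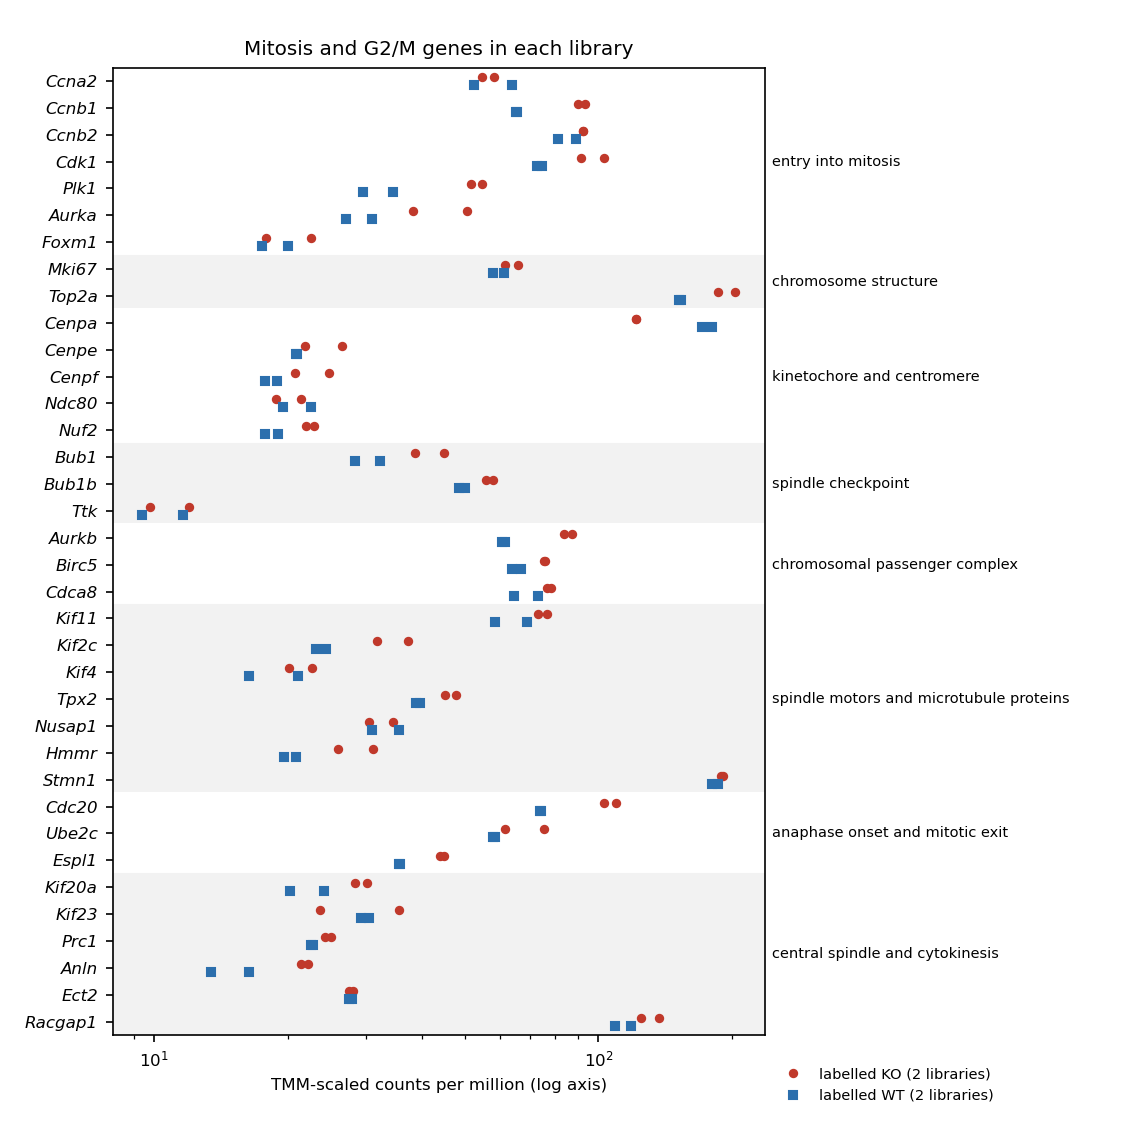
TMM-scaled CPM (log axis) of the 36 mitosis and G2/M genes in each library, ordered by role, with circles for the 2 libraries labelled KO and squares for the 2 labelled WT. The circles lie to the right of both squares for 27 genes, and to the left of both for Cenpa.

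The promoters of these genes share sequence letters that the choice of the list did not use. RefSeq windows from 250 bases before to 50 after each start (build GRCm38.p6, the assembly called mm10) were found for 30 of the 36, in 32 windows. Aurkb, Ccna2, Foxm1, Kif20a, Stmn1 and Tpx2 had none in the table used. The CHR, a site bound by the LIN54 subunit of MuvB complexes, was searched as TTTGAA on both strands. It was in 26 of 32 windows of the mitosis genes (81.2%), against 12.7% of 13563 windows of tested genes and 17.9% of all 32851 windows. In 24 of those 26 a match lay wholly within 50 bases of the start, against 443 of the 1719 matched windows of tested genes (25.8%). The NF-Y box, searched as CCAAT on both strands, was in 81.2% of mitosis windows against 37.5% of windows of tested genes. Both were in 71.9% against 5.1%. E2F letters (TTTCCCGC, TTTGGCGC or TTTCGCGC on either strand) were in 1 of 32 mitosis windows, or 3.1%, against 3.3% of windows of tested genes. By contrast, 40.5% of 37 windows of DNA replication and G1/S genes held the E2F letters and 13.5% the CHR letters. By change, the CHR letters were in 9 of 11 windows of genes called higher (81.8%) and 17 of 21 of the others (81.0%).

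Windows are shown for the 6 called genes with the smallest p among those with a window in the table and no overlapping exon, so that the letters can be seen in genes that rose and in the gene that fell. Capitals mark CHR, NF-Y box and E2F letters, each written 5′ to 3′ on the gene's own strand, and the start follows base 250.
Cenpa, chr5:30666636-30666935, plus strand: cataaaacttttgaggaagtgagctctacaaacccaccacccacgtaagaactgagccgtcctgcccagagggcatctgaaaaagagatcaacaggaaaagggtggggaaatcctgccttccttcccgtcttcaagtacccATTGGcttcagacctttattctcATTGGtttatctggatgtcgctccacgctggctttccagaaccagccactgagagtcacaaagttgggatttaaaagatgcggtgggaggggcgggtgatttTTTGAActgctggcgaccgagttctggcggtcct
Ccnb1, chr13:100786437-100786736, minus strand: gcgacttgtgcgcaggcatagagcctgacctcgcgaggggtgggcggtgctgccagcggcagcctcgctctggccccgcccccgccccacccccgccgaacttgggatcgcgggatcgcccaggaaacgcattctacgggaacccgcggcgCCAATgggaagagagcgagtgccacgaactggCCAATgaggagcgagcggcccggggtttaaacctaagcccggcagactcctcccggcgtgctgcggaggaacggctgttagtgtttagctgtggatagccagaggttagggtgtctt
Cdk1, chr10:69352863-69353162, minus strand: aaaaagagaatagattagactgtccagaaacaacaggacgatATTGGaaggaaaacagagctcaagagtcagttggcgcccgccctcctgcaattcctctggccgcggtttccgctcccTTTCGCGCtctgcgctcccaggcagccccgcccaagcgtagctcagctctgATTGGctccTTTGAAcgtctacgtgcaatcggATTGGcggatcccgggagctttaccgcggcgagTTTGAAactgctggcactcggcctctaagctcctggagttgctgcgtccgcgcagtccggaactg
Aurka, chr2:172370521-172370820, minus strand: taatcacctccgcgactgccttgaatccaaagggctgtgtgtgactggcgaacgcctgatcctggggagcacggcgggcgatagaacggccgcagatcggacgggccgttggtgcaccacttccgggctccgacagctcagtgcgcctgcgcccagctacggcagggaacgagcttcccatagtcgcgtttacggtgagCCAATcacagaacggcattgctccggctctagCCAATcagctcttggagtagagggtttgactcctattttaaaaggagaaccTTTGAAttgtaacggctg
Kif2c, chr4:117178723-117179022, minus strand: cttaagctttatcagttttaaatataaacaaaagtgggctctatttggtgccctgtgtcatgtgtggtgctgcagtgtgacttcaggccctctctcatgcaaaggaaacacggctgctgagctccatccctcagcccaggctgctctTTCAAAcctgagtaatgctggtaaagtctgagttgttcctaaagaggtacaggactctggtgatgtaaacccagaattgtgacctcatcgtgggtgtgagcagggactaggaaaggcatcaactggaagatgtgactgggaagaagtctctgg
Bub1, chr2:127831810-127832109, minus strand: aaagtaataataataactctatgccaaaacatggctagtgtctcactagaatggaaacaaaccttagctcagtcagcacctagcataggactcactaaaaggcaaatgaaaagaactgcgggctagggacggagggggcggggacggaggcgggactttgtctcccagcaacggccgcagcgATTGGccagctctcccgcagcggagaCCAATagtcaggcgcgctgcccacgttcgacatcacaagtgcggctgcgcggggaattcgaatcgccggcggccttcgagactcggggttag
Positions are counted from 1 at the 5′ end of the window. Cenpa, the gene that fell, held the CHR letters at position 267 with 2 NF-Y boxes upstream. Cdk1 held them at positions 180 and 236 with 3 NF-Y boxes and 1 E2F match, and Aurka at position 283 with 2 NF-Y boxes. Ccnb1 and Bub1 each had 2 NF-Y boxes and no TTTGAA in the window. No other form of the CHR was searched, so this does not show that the 2 genes lack one. The Kif2c window, with the CHR letters at position 148, lies inside the gene as GENCODE M21 annotates it (chromosome 4, 117159639 to 117182639), at a start other than the outermost.

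**Figure D2:**
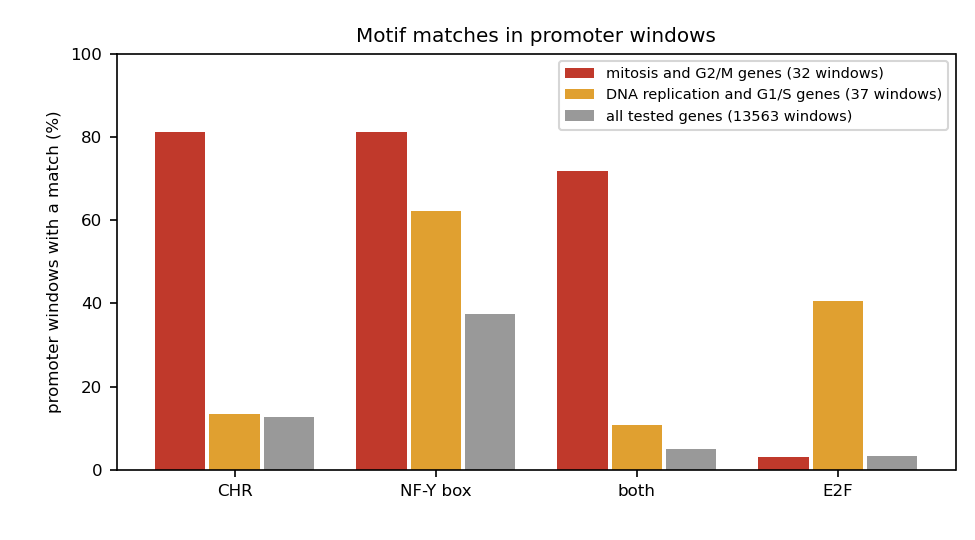
Share of promoter windows (percent) with a match to the CHR, the NF-Y box, both, or E2F letters, for mitosis and G2/M genes, DNA replication and G1/S genes and all tested genes. The CHR stands at 81.2%, 13.5% and 12.7%, and E2F at 3.1%, 40.5% and 3.3%.

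Among genes for entry into mitosis, 4 of 7 rose. Plk1, the polo-like kinase that drives centrosome maturation and mitotic entry, had the steepest change of the list, with 54.8 and 51.7 CPM in the libraries labelled KO against 29.6 and 34.6 CPM in those labelled WT. That is 1.66-fold, a log2 fold change of 0.73 ± 0.10 (standard error; edgeR adjusted p = 0.000332). Both KO libraries were above both WT libraries, and the gap between groups was wider than that within either. Cyclin B1 (Ccnb1), the activating partner of CDK1, had 93.3 and 90.1 CPM in the libraries labelled KO against 65.4 and 65.5 CPM in those labelled WT, or 1.40-fold (log2 0.49 ± 0.07, edgeR adjusted p = 0.000466). Cdk1 itself had 91.5 and 103 CPM against 72.9 and 74.8 CPM in the libraries labelled WT, or 1.32-fold (log2 0.40 ± 0.08, edgeR adjusted p = 0.00312). Aurora A (Aurka), a kinase of the spindle poles, had 50.6 and 38.3 CPM against 27.01 and 30.9 CPM, or 1.53-fold (log2 0.62 ± 0.13, edgeR adjusted p = 0.00586), with the KO libraries further apart than for the other 3. These 4 calls held under each of the 10 alternatives. Cyclin B2 (Ccnb2, 92.5 and 92.5 CPM against 81.3 and 88.9 CPM), the transcription factor gene Foxm1 (17.8 and 22.6 CPM against 17.5 and 20.05 CPM) and cyclin A2 (Ccna2, 54.6 and 58.3 CPM against 63.9 and 52.5 CPM) did not pass. The 95% interval of Ccna2, from -0.26 to 0.18, lay below that of Ccnb1, from 0.33 to 0.64. Plk1 is found on chromosome 7, plus strand, from 122159439 to 122169873, Ccnb1 on 13 from 100778650 to 100786570, Cdk1 on 10 from 69335146 to 69352938 and Aurka on 2 from 172356190 to 172370535, all 3 on the minus strand (mm10). Plk1 shares exon bases on the opposite strand with Gm44985, and Ccna2 with Exosc9, while Foxm1 overlaps Gm44596 and Tex52. Whether the counting used strand is not stated, and strand would not separate Foxm1 from its 2 neighbours, which lie on its own strand. These 3 values are therefore uncertain, as are those of overlapping genes below.

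The genes of chromosome structure split. Top2a, the topoisomerase that untangles sister chromatids, had 186 and 203 CPM in the libraries labelled KO against 153 and 152 CPM in those labelled WT. That is 1.27-fold (log2 0.35 ± 0.06, edgeR adjusted p = 0.00160), with no overlap between groups. Mki67, whose product Ki-67 coats mitotic chromosomes and is the standard marker of cycling cells, had 66.0 and 61.6 CPM against 61.5 and 57.8 CPM. Its highest WT library lay just below its lowest KO library, and it did not pass (log2 0.10, 95% interval -0.08 to 0.28, edgeR adjusted p = 0.458). Top2a, on chromosome 11 (minus strand, 98992943 to 99024189), contains the small gene Gm23451 in an exon on the same strand, while Mki67 lies on 7 from 135689784 to 135716361 on the minus strand.

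Kinetochore and centromere genes held the list's only fall. Cenpa, which encodes the histone H3 variant that marks centromeres, had 121 and 122 CPM in the libraries labelled KO, against 180.1 and 171 CPM in those labelled WT. That is 1.44-fold lower, a log2 fold change of -0.53 ± 0.06 with a 95% interval from -0.66 to -0.40 (edgeR adjusted p = 5.50e-05). The KO libraries lay close together and well below both WT libraries, and the call held under each of the 10 alternatives, with log2 fold changes from -0.56 to -0.44. By p it was the firmest call of the 36. The other 4 did not pass. Cenpf, a large protein of the outer kinetochore, had 20.8 and 24.7 CPM in the libraries labelled KO against 19.0 and 17.7 CPM in those labelled WT (log2 0.31, edgeR adjusted p = 0.135). Nuf2 had 21.9 and 22.9 CPM against 17.7 and 19.0 CPM (edgeR adjusted p = 0.138), and its partner in the microtubule-binding complex, Ndc80, had 18.8 and 21.4 CPM against 22.6 and 19.5 CPM (edgeR adjusted p = 0.790). The kinetochore kinesin gene Cenpe had 21.9 and 26.5 CPM against 21.02 and 20.8 CPM (edgeR adjusted p = 0.302). Groups overlapped for Ndc80 and not for Cenpf, Nuf2 or Cenpe. Cenpf was called higher without KO replicate 1 (edgeR adjusted p = 0.0266, with up to 0.466 over the alternatives). Cenpa lies on chromosome 5 from 30666777 to 30674830 on the plus strand, and no other annotated exon overlaps it.

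**Figure D3:**
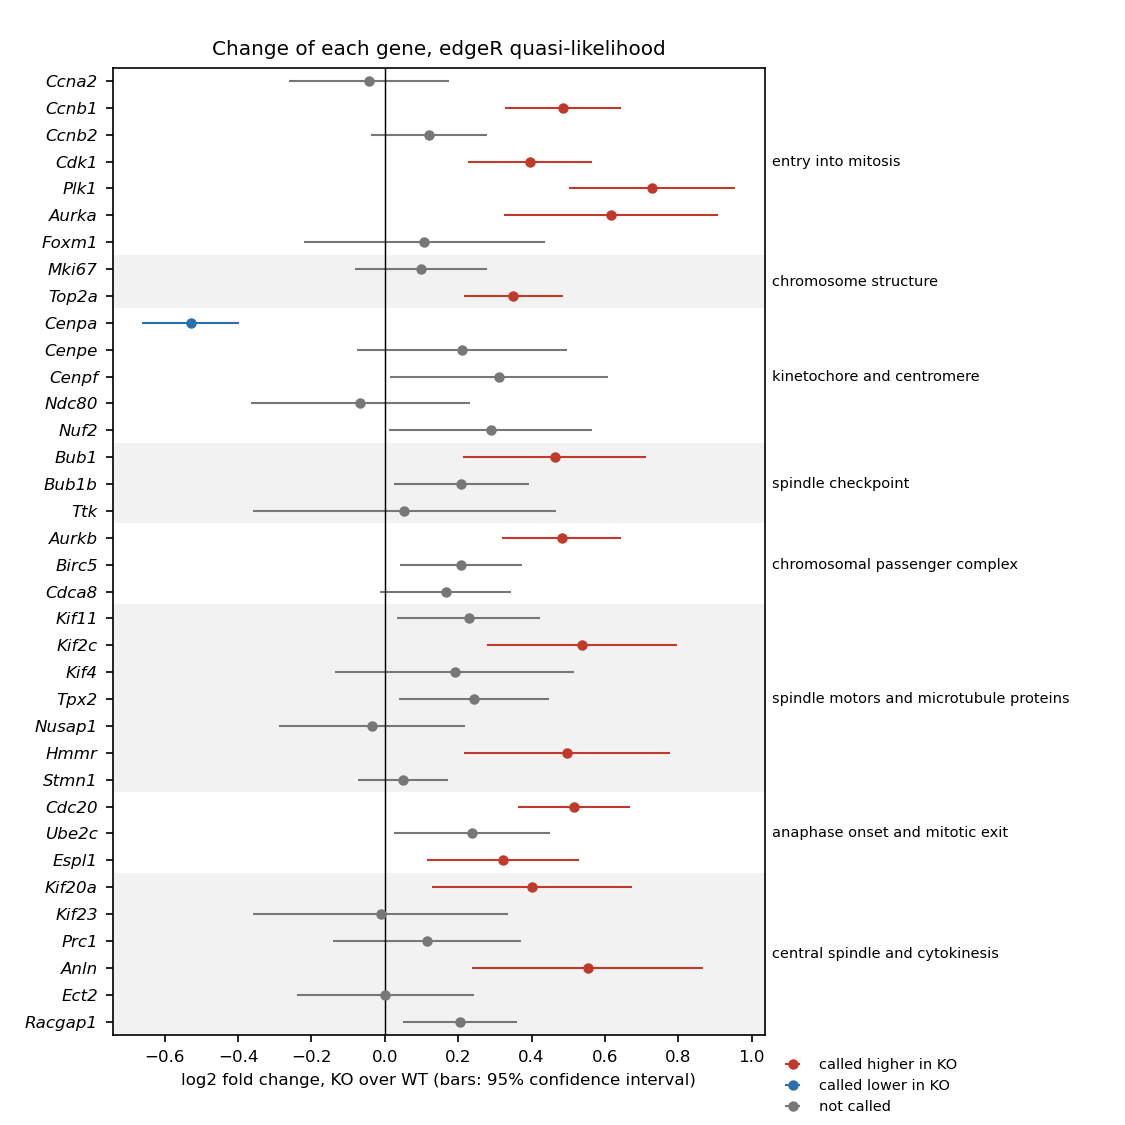
Log2 fold change, KO over WT, of each mitosis and G2/M gene with its 95% confidence interval from edgeR, coloured by call and ordered by role. Plk1 stands highest at 0.73, and Cenpa alone is called lower, at -0.53.

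In the spindle checkpoint, 1 of 3 genes rose. Bub1, a checkpoint kinase that also phosphorylates centromeric histone H2A, had 44.8 and 38.7 CPM in the libraries labelled KO against 28.3 and 32.2 CPM in those labelled WT. That is 1.38-fold (log2 0.46 ± 0.11, edgeR adjusted p = 0.0122), a call lost without WT replicate 1 (adjusted p = 0.126, the highest over its alternatives, with a lowest of 4.06e-05). Bub1b, which encodes the checkpoint protein BUBR1, had 58.0 and 55.9 CPM against 50.02 and 48.6 CPM, with no overlap between groups and no call (log2 0.21, edgeR adjusted p = 0.107). Scaling by library totals alone gave a call (edgeR adjusted p = 0.0250). Ttk, the kinase MPS1 that starts the checkpoint signal, was the list's lowest gene in CPM, with 9.82 and 11.97 CPM against 11.6 and 9.40 CPM, and its groups overlapped (edgeR adjusted p = 0.885). The position of Bub1 is chromosome 2, minus strand, 127801122 to 127831865.

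In the chromosomal passenger complex, which corrects faulty attachments and guides cytokinesis, the kinase gene rose. Aurkb (Aurora B) had 83.6 and 87.1 CPM in the libraries labelled KO against 60.6 and 61.6 CPM in those labelled WT, or 1.40-fold (log2 0.48 ± 0.08, edgeR adjusted p = 0.000622). Its call held under each of the 10 alternatives. Survivin (Birc5), a targeting subunit, had 75.7 and 75.3 CPM against 63.8 and 67.0 CPM (log2 0.21, edgeR adjusted p = 0.0731). Borealin (Cdca8), another targeting subunit, had 78.3 and 76.5 CPM against 73.3 and 64.6 CPM (log2 0.17, edgeR adjusted p = 0.183). Neither passed, although both KO libraries were above both WT libraries for each, and scaling by library totals alone called both (edgeR adjusted p = 0.0140 for Birc5 and 0.0436 for Cdca8). Cdca8 shares exon bases with 9930104L06Rik on the opposite strand. Aurkb lies on chromosome 11 from 69045647 to 69051664 on the plus strand.

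Of 7 genes for spindle motors and microtubule proteins, 2 rose. Kif2c, a kinesin that shortens microtubules at kinetochores, had 31.7 and 37.2 CPM in the libraries labelled KO against 23.1 and 24.4 CPM in those labelled WT, or 1.45-fold (log2 0.54 ± 0.12, edgeR adjusted p = 0.00669). Hmmr, a spindle protein that also binds hyaluronan, had 26.0 and 31.1 CPM against 20.9 and 19.6 CPM, or 1.41-fold (log2 0.50 ± 0.13, edgeR adjusted p = 0.0159). For both genes every KO library was above every WT library. Tpx2, the activator of Aurora A on the spindle, had 45.2 and 47.9 CPM against 39.0 and 39.7 CPM (edgeR adjusted p = 0.0882), and Kif11, the motor that pushes the poles apart, had 73.1 and 76.5 CPM against 58.5 and 69.1 CPM (edgeR adjusted p = 0.0938). Neither passed, and neither had overlapping groups. Stathmin (Stmn1), which destabilises microtubules, had 190.5 and 189 CPM against 180.1 and 186 CPM, with a 95% interval for its log2 fold change from -0.07 to 0.17. Kif4 (22.7 and 20.1 CPM against 16.3 and 21.1 CPM) and Nusap1 (34.5 and 30.4 CPM against 35.5 and 31.0 CPM), a motor of chromosome arms and a microtubule bundler, had overlapping groups. Kif4 shares exon bases with Pdzd11 and Nusap1 with Oip5, on the opposite strand, and Stmn1 with Gm23634 on its own. The call of Kif2c was lost without WT replicate 1 (edgeR adjusted p = 0.0604, against a lowest of 1.61e-05 over the alternatives), and that of Hmmr without WT replicate 1, WT replicate 2 or KO replicate 2 (edgeR adjusted p = 0.0598, 0.105 and 0.0590, against a lowest of 0.000171). Tpx2 was called when scaled by library totals (edgeR adjusted p = 0.0228), and Kif11 with those, without WT replicate 2 and without KO replicate 1 (edgeR adjusted p = 0.0223, 0.0326 and 0.0340, with up to 0.620 over the alternatives). Kif2c lies on the minus strand of chromosome 4 at the coordinates given above, and Hmmr on 11 from 40701395 to 40733422, also on the minus strand.

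At anaphase onset and mitotic exit, 2 of 3 genes rose. Cdc20, the activator of the anaphase-promoting complex, had 109 and 103 CPM in the libraries labelled KO against 74.5 and 73.9 CPM in those labelled WT. That is 1.43-fold (log2 0.52 ± 0.07, edgeR adjusted p = 0.000241), with groups far apart, and the call held under each of the 10 alternatives. Its exons share 53 of 1868 bases with Elovl1 on the opposite strand, so the value is uncertain. Separase (Espl1), the protease that cleaves cohesin, had 44.1 and 44.99 CPM against 35.7 and 35.5 CPM, or 1.25-fold (log2 0.32 ± 0.10, edgeR adjusted p = 0.0294). Its replicates lay close together in both groups, yet leaving out either WT library lost the call (edgeR adjusted p = 0.154 and 0.149, against a lowest of 0.00790 over the alternatives). Ube2c, the ubiquitin-conjugating enzyme that works with the complex, had 61.6 and 75.5 CPM against 58.0 and 58.4 CPM and did not pass (edgeR adjusted p = 0.111). Leaving out KO replicate 1 gave a call (edgeR adjusted p = 0.00130), as did library totals alone (0.0302), and the highest over the alternatives was 0.621, and its exons overlap Tnnc2 on the opposite strand. Cdc20 is on the minus strand of chromosome 4, from 118432901 to 118437352, and Espl1 on 15 from 102296266 to 102324357 on the plus strand.

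For central spindle and cytokinesis, 2 of 6 genes rose, and neither call held under every alternative. Anillin (Anln), the scaffold of the contractile ring, had 21.4 and 22.2 CPM in the libraries labelled KO against 16.3 and 13.4 CPM in those labelled WT, or 1.47-fold (log2 0.55 ± 0.14, edgeR adjusted p = 0.0164). Without WT replicate 2 its edgeR adjusted p was 0.179, against a lowest of 0.00321. Kif20a, a kinesin of the central spindle, had 30.2 and 28.4 CPM against 24.1 and 20.2 CPM, or 1.32-fold (log2 0.40 ± 0.13, edgeR adjusted p = 0.0389). Its call was lost with DESeq2 (adjusted p = 0.0547) and without WT replicate 1, WT replicate 2 or KO replicate 1 (edgeR adjusted p = 0.0531, 0.335 and 0.0524, against a lowest of 0.00937). It shares 1271 of 4338 exon bases with Cdc23 on the opposite strand, and Cdc23 had 54.1 and 58.1 CPM against 39.1 and 51.2 CPM (edgeR adjusted p = 0.0791), so the value of Kif20a is uncertain. Racgap1, which with Kif23 forms the centralspindlin complex, had 125 and 137 CPM against 118 and 109 CPM (log2 0.20, edgeR adjusted p = 0.0612). Leaving out KO replicate 1 or scaling by library totals gave a call (edgeR adjusted p = 0.00655 and 0.0109, with up to 0.361 over the alternatives). Kif23 had 23.6 and 35.6 CPM against 30.4 and 29.3 CPM, so that its KO libraries lay on either side of both WT libraries. Prc1, which bundles the central spindle's microtubules, had 24.97 and 24.2 CPM against 22.8 and 22.6 CPM (edgeR adjusted p = 0.551) and shares exon bases with Rccd1 on the opposite strand. Ect2, the exchange factor that activates RhoA for the ring, had 28.0 and 27.5 CPM against 27.9 and 27.5 CPM, with a 95% interval from -0.24 to 0.24. Anln is on the minus strand of chromosome 9, from 22332012 to 22389188.

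Among the 22 genes that did not pass, log2 fold changes ran from -0.07 to 0.31. Exons of 12 of the 36 overlap those of another annotated gene. Among the 24 without such overlap, 9 rose and 1 fell, with a median log2 fold change of 0.24.

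**Figure D4:**
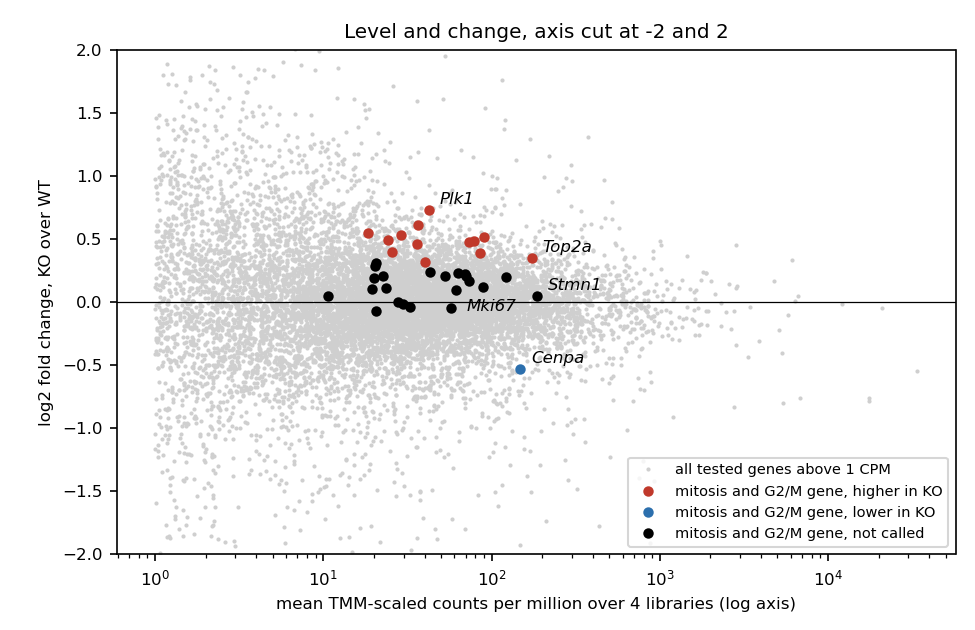
Mean TMM-scaled CPM over the 4 libraries (log axis) against log2 fold change, KO over WT, for tested genes above 1 CPM in grey and the 36 mitosis and G2/M genes marked by call, with the vertical axis limited to -2 to 2. Cenpa, at -0.53, stands apart from the other genes of the list, whose lowest value is -0.07.

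Per length, these genes spanned a wide range of levels. On the deposited FPKM scale, which divides by exon length, the mean over the 4 libraries was highest for Stmn1 (93.6 FPKM), Ccnb2 (56.0), Cdc20 (46.6), Cenpa (24.5) and Aurkb (24.0). The lowest were Cenpf (1.28), Anln (1.95) and Ttk (2.10), with 16 of the 36 above 10 FPKM. Their median position among all tested genes was the 65th percentile, from the 27.5th for Cenpf to the 95.8th for Stmn1. Level and change were only loosely related across the 36 genes, with a Spearman rho of 0.11. That value describes genes that share the same libraries and are not independent replicates. By group, Stmn1 had 95.5 FPKM in the libraries labelled KO and 91.8 FPKM in those labelled WT, Cdc20 had 55.0 and 38.2 FPKM, and Cenpa had 20.1 and 28.8 FPKM in the same order. Within the libraries labelled KO, Cenpa thus stood below Cdc20, Aurkb (28.0 FPKM), Ube2c (25.5 FPKM) and Plk1 (23.4 FPKM). Within those labelled WT it stood above Aurkb (19.96 FPKM), Ube2c (21.5 FPKM) and Plk1 (14.05 FPKM), but below Cdc20.

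Other genes of the pathway were read in lists that leave out the 36. Over these 118 genes, 17 rose (14.4%) and 2 fell (1.69%), beside 10.1% higher and 11.0% lower over all tested genes. Their median log2 fold change was 0.14. The share that rose in each of these lists, from 9.09% to 18.9%, was nearer that background than the 36.1% of the mitosis genes, and the counts below are given as descriptions. Of 37 other kinetochore and centromere genes 7 rose and 30 did not pass. Zwint had 131 and 132 CPM in the libraries labelled KO against 107 and 111 CPM in those labelled WT (edgeR adjusted p = 0.00862), and Spc24, of the Ndc80 complex, had 57.2 and 59.1 CPM against 40.2 and 47.9 CPM (adjusted p = 0.0123). Ska2 had 26.3 and 25.02 CPM against 19.4 and 17.6 CPM (adjusted p = 0.0174). All 7 of these calls were lost without WT replicate 1, and without WT replicate 2 the list had 4. Among 14 other G2/M kinases, phosphatases and cyclins, 2 rose, the kinase gene Pbk with 64.6 and 66.5 CPM against 45.5 and 47.0 CPM (edgeR adjusted p = 0.000992) and the spindle gene Gtse1 with 46.7 and 45.8 CPM against 32.6 and 30.4 CPM (adjusted p = 0.00163), and both calls held under each of the 10 alternatives. Of 18 subunits and regulators of the anaphase-promoting complex 2 rose (11.1%), Anapc5 (log2 0.28, edgeR adjusted p = 0.00231) and Anapc1 (log2 0.23, adjusted p = 0.0237), the second being lost without WT replicate 1 or 2 (up to 0.176). Of 8 condensin subunits 1 rose (12.5%), Ncapg2 (log2 0.40, edgeR adjusted p = 0.00455).

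Of 23 other spindle and cytokinesis genes, 3 rose (13.04%) and 1 fell (4.35%), near the 10.1% and 11.0% of all tested genes. The risers were Tacc3 (log2 0.31, edgeR adjusted p = 0.00725), which overlaps Tmem129, Arhgap11a (0.42, adjusted p = 0.0111) and Spag5 (0.43, adjusted p = 0.0163). The first 2 were lost without WT replicate 1 (adjusted p = 0.0765 and 0.131) and Spag5 without WT replicate 2 (0.151), each the highest over its alternatives. Kif15, a second motor that separates spindle poles, was lower, with 26.6 and 29.5 CPM in the libraries labelled KO against 35.8 and 35.2 CPM in those labelled WT (log2 -0.34, edgeR adjusted p = 0.0445). It is named because it was the only fall of its list, and 5 of the 10 alternatives lost the call, with adjusted p from 0.00842 to 0.222. Among 11 MuvB and DREAM subunits, which switch these promoters between repression and activation, 1 fell and 1 rose, or 9.09% each way. Rbl2, the pocket protein p130 of the repressing form, had 63.2 and 59.999 CPM against 108.6 and 96.8 CPM, or 1.67-fold lower (log2 -0.74 ± 0.08, edgeR adjusted p = 3.24e-05), a call that held under each of the 10 alternatives. Its exons overlap those of Aktip, so the value is uncertain. Mybl2, which encodes B-MYB of the activating form, had 41.5 and 42.6 CPM against 31.3 and 34.4 CPM (log2 0.36 ± 0.10, edgeR adjusted p = 0.0255), a call lost without WT replicate 1 or 2 (up to 0.234). Of 7 CDK inhibitor genes 1 rose (14.3%), Cdkn1a, which encodes p21 (log2 0.28, edgeR adjusted p = 0.00714), and that call was lost without WT replicate 1 (adjusted p = 0.114).

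Of 38 genes of DNA replication and the G1/S step, 18 rose and 1 fell, or 47.4% and 2.63%, with a median log2 fold change of 0.23 against 0.22 for the mitosis genes. The difference between the lists was not tested. Cdc6, a licensing factor, had 63.0 and 62.1 CPM in the libraries labelled KO against 35.7 and 38.0 CPM in those labelled WT (log2 0.76 ± 0.09, edgeR adjusted p = 6.07e-05). Mcm2 and Rrm2 were also higher (log2 0.61 and 0.51, edgeR adjusted p = 1.65e-05 and 2.83e-05). Without WT replicate 1 or 2, 11 of the 38 rose.

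**Figure D5:**
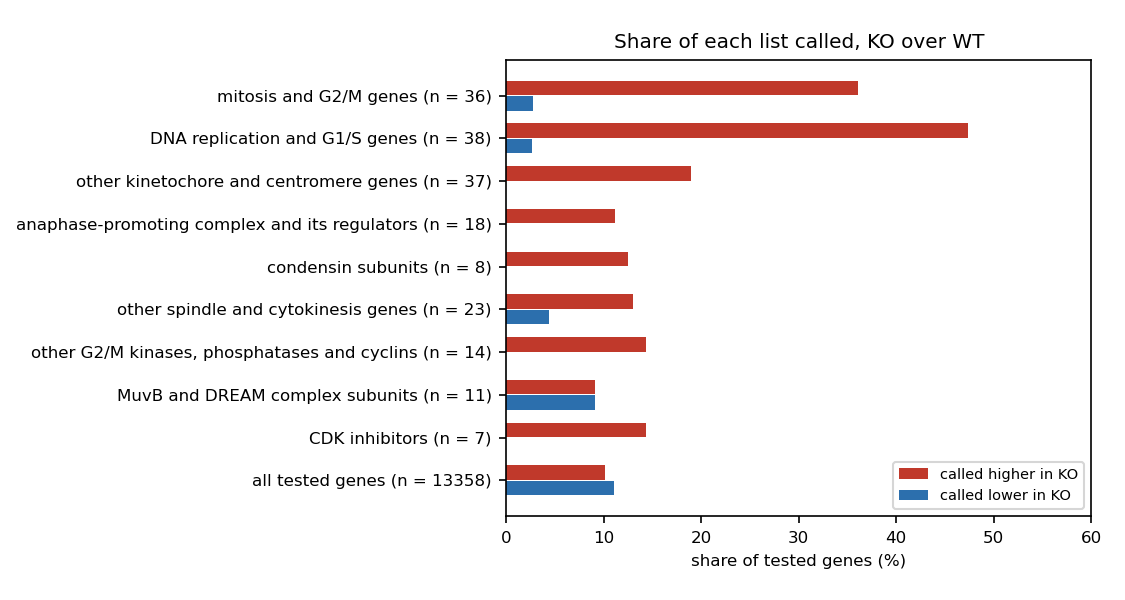
Share of each gene list (percent of its tested genes) called higher or lower in the libraries labelled KO, with the number of genes in brackets. Mitosis and G2/M genes stand at 36.1% higher, DNA replication and G1/S genes at 47.4%, and all tested genes at 10.1% higher and 11.0% lower.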

How the data were processed

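Per the file headers, the deposited table of each of the 4 libraries gives 2 values for every gene, its count and its FPKM. The authors' counts are whole reads per gene and were used as deposited. For the upstream steps, the submitters' notes list featureCounts, Bowtie2, Trim Galore 0.4.4, DESeq2 and edgeR, without roles, and the build mm10. The annotation, the strandedness and the counting settings are not given in these sources. The deposited FPKM values were used only for levels per length. For all 36 genes the lengths they imply equal GENCODE M21 exon lengths within 1%, and their library totals are 1.00 to 1.01 times the summed counts in WT and 1.06 times in KO.

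The test was edgeR 4.0.16 under R 4.3.3 (filterByExpr, minimum count 10 and minimum total 15; TMM; glmQLFit, robust; glmQLFTest), KO over WT, with Benjamini-Hochberg adjustment over 13358 genes and calls under 0.05. The step was tested on simulated counts with the same spread for every gene and changes of 1.5-fold or more. That test does not cover the smaller changes of most genes called here. A ± sign gives the standard error. Alternatives were RLE factors, library totals alone, no filter, the replicate number as a block, DESeq2 1.42.0, limma-voom (limma 3.58.1) and leaving out each library. Counting noise alone did not account for the spread of replicates (chi-square per degree of freedom 9.72 for KO and 7.39 for WT), so none were merged. The common coefficient of variation between libraries of a group, from edgeR's dispersion, was 9.31%, and this spread may be only technical.

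The genes and lists were chosen with earlier results of these data known. All 36 are named, with fuller values for up to 4 per role with the smallest p; of each other list up to 3 called genes with the smallest p are named. Positions are from GENCODE M21 (mm10), counted from 1.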

Additional observations from a re-analysis of the deposited data

How the results depend on the processing

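Over 10 alternatives, 7 of the 13 risers and Cenpa kept their calls, and no called gene of the list changed direction. The genes that rose numbered 13 with RLE factors, without a filter, with the replicate block and with limma-voom, 12 with DESeq2, 20 with library totals alone, and 8 to 16 when a library was left out. For the median log2 fold change of the list the value was 0.30 with library totals alone and 0.20 to 0.28 when a library was left out. Over all tested genes, library totals alone gave 2105 higher, and leaving out a library gave 714 to 1605 higher and 831 to 1787 lower. Nothing in the labels says that the replicate numbers pair the samples. Deviations of same-numbered libraries correlated at -0.015 over genes, a single value that cannot show whether the libraries were paired. The replicate block gave 1393 higher and 1522 lower over all genes.

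With library totals alone, the higher calls numbered 6 for the anaphase-promoting complex, 5 for other spindle genes (with 0 lower), 4 for other G2/M kinases and 3 for CDK inhibitors. When a library was left out, higher calls ranged from 0 to 9 for other kinetochore genes, 1 to 6 for the anaphase-promoting complex, 1 to 5 for other spindle genes, 2 to 5 for other G2/M kinases, 0 to 1 for MuvB and DREAM subunits, 0 to 2 for CDK inhibitors and 11 to 18 for DNA replication genes. Lower calls ranged from 0 to 1 for the anaphase-promoting complex and for condensin, 0 to 2 for other spindle genes and 1 to 2 for DNA replication genes. The log2 fold change of Smad4 ran from -0.063 to 0.40.

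Among genes not called, 7 changed sign. With library totals alone Ccna2 was at 0.042, Ndc80 at 0.018, Nusap1 at 0.050 and Kif23 at 0.074. When a library was left out, log2 fold changes ran from -0.18 to 0.10 for Ccna2, -0.075 to 0.27 for Foxm1, -0.17 to 0.040 for Ndc80, -0.098 to 0.21 for Ttk, -0.13 to 0.065 for Nusap1, -0.34 to 0.25 for Kif23 and -0.012 to 0.014 for Ect2. The cause of these changes was not tested, beyond the fewer samples and the scaling that define them. At the low end of depth, Ttk, with 235 to 323 reads a library, had a 95% interval from -0.36 to 0.47.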

Other observations

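Genes that load CENP-A onto centromeres, of which 3 are given here, did not pass the test. Hjurp, the chaperone of CENP-A, had 110.5 and 124.8 CPM in the libraries labelled KO against 103 and 111 CPM in those labelled WT (log2 0.14, 95% interval -0.03 to 0.30, edgeR adjusted p = 0.244). The licensing genes Mis18a and Oip5 had log2 fold changes of -0.14 and 0.03 (edgeR adjusted p = 0.450 and 0.940). Cenpc1, whose product binds CENP-A nucleosomes, was at -0.07 (adjusted p = 0.799). The 95% interval of Cenpa, from -0.66 to -0.40, lay below the estimate of each of these 4 genes, and the differences were not tested. These 4 genes were picked from the kinetochore list after the value of Cenpa was seen. Of that list's 37 genes, 28 had a positive log2 fold change and 9 a negative one. Both KO libraries lay above both WT libraries for 20 and below for 5, among these Mis18a and Cenpl. Over the 13358 tested genes this was so for 3971 and 4013. Cenpl, at -0.29, did not pass (edgeR adjusted p = 0.112). Its 95% interval, from -0.54 to -0.03, overlapped that of Cenpa.

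Thymidine kinase (Tk1), which salvages thymidine for DNA synthesis, was the only DNA replication gene called lower. It had 25.6 and 25.5 CPM in the libraries labelled KO against 36.7 and 39.9 CPM in those labelled WT (log2 -0.58 ± 0.11, edgeR adjusted p = 0.00208), and the call held under each of the 10 alternatives (adjusted p up to 0.0283). Its exons overlap those of Afmid, so the value is uncertain.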
